A study of Rattus norvegicus with 42 samples.

Results

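Actb, Gapdh, B2m and Ppia are 4 genes whose transcripts are commonly used to scale measurements of other transcripts, and their levels were followed over genotype and time in GH4C1 cells. The genes were chosen by name, through the Ensembl identifiers ENSRNOG00000034254 (Actb), ENSRNOG00000018630 (Gapdh), ENSRNOG00000017123 (B2m) and ENSRNOG00000027864 (Ppia), and all 4 were among the 13776 genes of the count tables. GH4C1 is a long-established cell line from the rat pituitary that makes growth hormone and prolactin. Wild-type cells without treatment (WT) were compared with cells labelled Neat1 -/- and CRISPR-Cas9 (KO), which lack Neat1, a long non-coding RNA around which nuclear paraspeckles assemble. Both were synchronised by a change to fresh medium and harvested at intervals of 4 h, the first at 10 h (T10) and the last at 34 h (T34), with 3 replicates at each of 7 times, which gave 42 libraries of total RNA in 14 groups. The labels do not say how many KO clones were used or whether replicates were separate cultures, so p-values measure the spread between these samples, which may be technical. Genotype and any other difference between the WT and KO cultures or clones cannot be told apart. The files pair no identifier with a name, so the 4 names are those given with the identifiers, and neither Neat1 nor pituitary markers were used to check the labels.

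Each of the 4 genes serves a different part of the cell. Actb encodes cytoplasmic beta-actin, a subunit of the filaments that give the cell its shape, and its transcription is known to respond to serum and to free actin through serum response factor. Gapdh encodes glyceraldehyde-3-phosphate dehydrogenase, a glycolytic enzyme whose transcript is known to respond to insulin, glucose and oxygen. B2m encodes beta-2 microglobulin, the light chain that holds class I histocompatibility molecules at the cell surface, and it is induced by interferon. Ppia encodes cyclophilin A, an abundant peptidyl-prolyl isomerase that helps proteins to fold and binds cyclosporin. A gene used as a reference is taken to hold a constant level in all conditions compared. Near-identical processed copies of Actb, Gapdh and Ppia are common in mammalian genomes, and the counting's treatment of reads that match several places is not given in the sources used here, so the level of these 3 genes is uncertain to that extent.

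The 150 bases before the start of Gapdh, B2m and Ppia are shown so that Gapdh, whose WT means spanned the widest range over time, can be read beside the other 2. No promoter entry was found for Actb, so it is not shown and was not searched for any motif. The sequences are RefSeq's for the GRCr8 assembly, and the build used for the counts is not given in the sources used here. Capitals mark every match, on either strand, to 5 motifs, and no match overlapped that of another motif. They were the CArG box, which serum response factor binds, the CCAAT box, the GC box GGGCGG, the TATA box TATAAA, and the E-box CACGTG, which circadian activators bind.
Gapdh, chr4:159652468-159652617, minus strand: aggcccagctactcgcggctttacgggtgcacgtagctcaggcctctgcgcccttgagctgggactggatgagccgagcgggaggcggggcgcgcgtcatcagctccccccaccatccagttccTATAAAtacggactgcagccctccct
B2m, chr3:129549180-129549329, plus strand: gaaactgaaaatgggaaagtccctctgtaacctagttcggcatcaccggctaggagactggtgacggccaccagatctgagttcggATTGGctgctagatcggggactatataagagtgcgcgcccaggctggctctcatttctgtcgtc
Ppia, chr14:85493066-85493215, plus strand: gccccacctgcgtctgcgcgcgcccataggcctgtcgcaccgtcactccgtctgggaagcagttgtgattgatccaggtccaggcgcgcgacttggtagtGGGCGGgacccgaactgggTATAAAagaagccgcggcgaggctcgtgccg
TATAAA stood 26 bases before the start of Gapdh and 31 before that of Ppia, and 8% of 33469 rat promoters held it in a window of the same length. Ppia also held GGGCGG, which 26% of promoters held, and B2m held CCAAT, read on the opposite strand, which 23.5% held. None of the 3 windows held CACGTG (3.74% of promoters) or a CArG box (0.878%). A match describes these letters and is not a measured binding site.

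Levels are given as CPM, a gene's count scaled to the same total in each library, after TMM scaling. TMM scaling sets a factor per library so that most genes have the same level, and library totals leave that factor out. The choice matters here because a single gene held 15.8% to 19.0% of a KO library's counts and at most 0.251% of a WT library's. The TMM factor was 1.08 to 1.17 in WT and 0.879 to 0.948 in KO, and the log2 fold change of KO over WT had a median over genes of -0.01 under TMM and of -0.31 under library totals. Library totals were 34.5 to 68.8 M counts in WT and 45.9 to 60.5 M in KO. The counts behind the values were 30625 to 87555 for Actb, 22312 to 83399 for Gapdh, 1951 to 6930 for B2m and 30328 to 114298 for Ppia. WT T34 replicate 1 stood apart from the other libraries of its group, with a correlation of log2 CPM over genes of 0.919 and 0.935 with the other replicates, and calls that it changed are given with and without it. KO T30 replicate 1 also differed from its group, as its values below show.

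Actb was higher in KO than in WT at 6 of the 7 times and was 1.71 times as high on average. Its KO level was highest at T10 and lowest at T34, while its WT level stayed within a narrow band outside WT T34 replicate 1. In WT the T10 libraries held 769, 811 and 744 CPM, those of T14 held 707, 853 and 821, those of T18 held 909, 921 and 824, and those of T22 held 857, 785 and 814. The T26 libraries held 860, 840 and 848 CPM, those of T30 held 840, 768 and 784, and those of T34 held 1889, 750 and 806. Except for the first T34 replicate, all WT values thus lay between 707 and 921 CPM. In KO the T10 libraries held 1856, 1767 and 1809 CPM, those of T14 held 1460, 1513 and 1428, those of T18 held 1481, 1546 and 1483, and those of T22 held 1547, 1603 and 1642. Later, the T26 libraries held 1568, 1720 and 1588 CPM, those of T30 held 1480, 1176 and 1117, and those of T34 held 1246, 1081 and 1054. All 21 KO values lay above all WT values other than that of WT T34 replicate 1, which was the highest of the 42. With library totals this separation of Actb was lost, as the lowest KO value was 984 CPM and the highest of those WT values 1036 CPM. With TMM and all libraries, none of the 4 genes had KO and WT ranges without overlap (17.4% of all genes did). Without WT T34 replicate 1, Actb, B2m and Ppia had under TMM (41.3% of all genes).

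**Figure D1:**
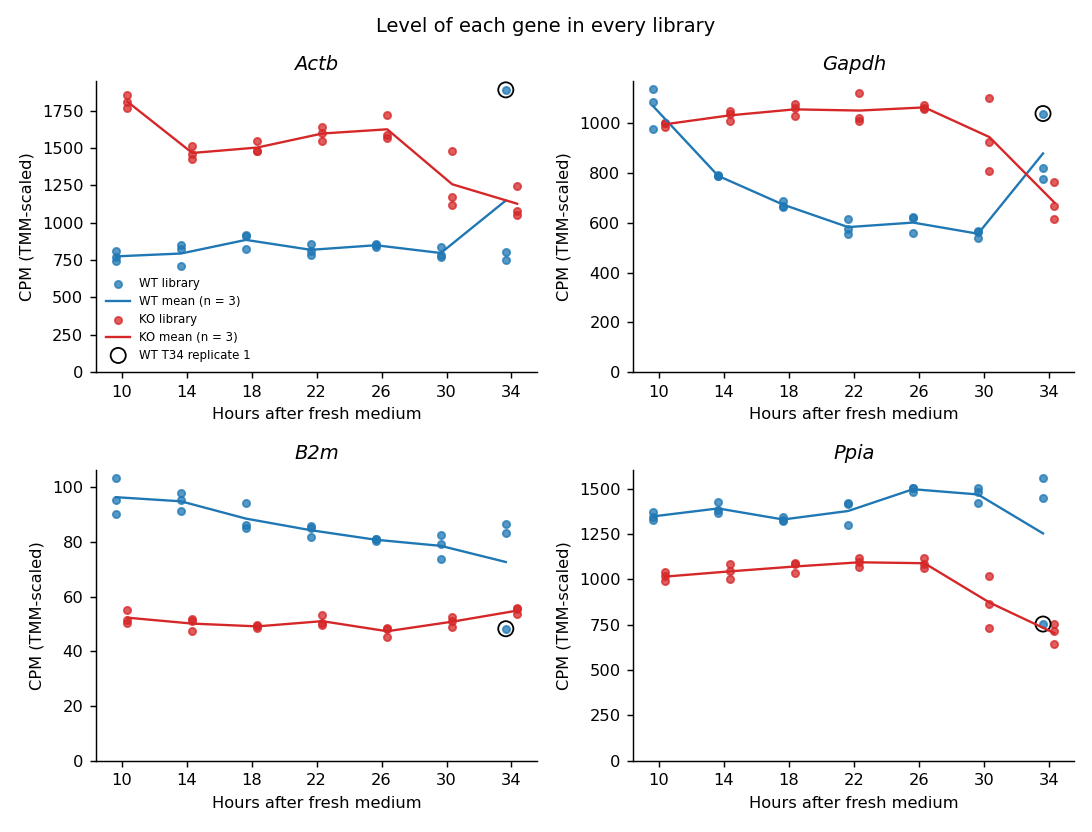
TMM-scaled CPM of Actb, Gapdh, B2m and Ppia (y axis, from 0) against hours after fresh medium (x axis) in 21 WT and 21 KO libraries, with a point per library, a line through the mean of 3 replicates and a ring around WT T34 replicate 1. Actb is higher and B2m and Ppia are lower in KO than in the WT libraries other than the ringed one, the Gapdh lines cross more than once, and the WT mean at T34 includes the ringed library.

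In the fit of all 42 libraries, 4 of the 4 genes were called for KO against WT averaged over the 7 times, at an adjusted p under 0.05 by edgeR. The background was high, as 88.1% of all genes were called in this comparison, so the count of 4 says little by itself and the size of the differences is what describes these genes. Actb was higher by 0.77 on the log2 scale (SE 0.07, adjusted p 1.59e-12 by edgeR), and Gapdh was higher by 0.43 (SE 0.03, adjusted p 1.35e-13 by edgeR). B2m was lower, at -0.74 (SE 0.04, adjusted p 1.5e-17 by edgeR), as was Ppia, at -0.50 (SE 0.05, adjusted p 5.14e-11 by edgeR). The median absolute log2 fold change over all genes was 0.46, so Gapdh lay below it and the other 3 above. Among the 4328 genes whose mean reached 50 CPM, 80.8% had a smaller absolute change than Actb, 79.1% than B2m, 61.0% than Ppia and 54.2% than Gapdh. Without WT T34 replicate 1 the log2 fold changes were 0.85 for Actb, 0.45 for Gapdh, -0.77 for B2m and -0.54 for Ppia, all 4 called, as were 90.7% of all genes. In bulk RNA, a change in every cell and a change in the share of cells with a high level cannot be told apart.

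Library totals in place of TMM moved these differences without changing the sign of any. With library totals the log2 fold changes were 0.47 for Actb and 0.13 for Gapdh (adjusted p 2.37e-07 and 0.000686 by edgeR), and -1.04 for B2m and -0.80 for Ppia (adjusted p 3.86e-23 and 1.9e-17 by edgeR). Here 89.8% of all genes were called, and the median gene was at -0.31. Relative to that median, Actb and Gapdh were again above and B2m and Ppia below the bulk of genes. Gapdh, at 1.09 times its WT level, was the steadiest of the 4 between genotypes under library totals, but its average hid opposite differences at different times.

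Gapdh followed a different course in each genotype. In WT its mean fell from 1068 ± 82.0 CPM at T10 to 556 ± 15.5 CPM at T30 (SD, n = 3 each) and was higher again at T34, whereas in KO it kept within a narrow range until T26 and was lowest at T34. In WT the T10 libraries held 1140, 1087 and 979 CPM, those of T14 held 786, 787 and 793, those of T18 held 688, 665 and 666, and those of T22 held 615, 577 and 556. The T26 libraries held 618, 625 and 559 CPM, those of T30 held 566, 538 and 564, and those of T34 held 1039, 822 and 775. The WT libraries of T10, T14, T18 and T22 followed each other down with no overlap between neighbouring times. In either direction, 20.5%, 15.2% and 12.7% of all genes had no overlap at these 3 steps. For Gapdh the WT libraries of T22, T26 and T30 overlapped. In KO the T10 libraries held 985, 999 and 1003 CPM, those of T14 held 1009, 1035 and 1051, those of T18 held 1030, 1077 and 1061, and those of T22 held 1010, 1020 and 1123. Later, the T26 libraries held 1056, 1061 and 1075 CPM, those of T30 held 1102, 809 and 923, and those of T34 held 763, 614 and 667. From T10 to T26 the 15 KO values thus spanned 1.14-fold, and all 3 T34 values lay below every other KO value. Between neighbouring times, the KO libraries did not overlap from T10 to T14 (higher) and from T30 to T34 (lower). In either direction, 17.7% and 31.0% of all genes had no overlap at these steps.

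Gapdh changed over time in both genotypes. The fitted WT means spanned 0.94 on the log2 scale, from T10 to T30 (adjusted p 7.22e-10 by edgeR, 6 degrees of freedom), and the KO means spanned 0.64, from T26 to T34 (adjusted p 4.85e-06 by edgeR). Of all genes, 37.5% were called for the time course in WT and 36.8% in KO. T34 differed from T10 by -0.28 in WT (SE 0.09, adjusted p 0.0125 by edgeR) and by -0.55 in KO (SE 0.09, adjusted p 1.1e-05 by edgeR), and without WT T34 replicate 1 the WT difference was -0.42 (SE 0.08, adjusted p 0.000115 by edgeR). The WT call was lost without WT replicate 2 or 3 (adjusted p 0.0936 and 0.0521 by edgeR). The WT libraries of T30 and T34 did not overlap, as was so for 21.2% of all genes. The difference between KO and WT therefore ran from -0.10 at T10 (SE 0.09, adjusted p 0.308 by edgeR) through 0.39 (T14), 0.65 (T18), 0.85 (T22), 0.82 (T26) and 0.76 (T30) to -0.37 by T34. Gapdh was called higher in KO at the 5 times from T14 to T30 and lower at T34 (adjusted p 0.00066 by edgeR). Without WT T34 replicate 1 the T34 difference was -0.23 (SE 0.08, adjusted p 0.0103 by edgeR). With library totals the T10 difference was -0.42 and called (adjusted p 0.000122 by edgeR), and the T14 difference was 0.08 and not called (adjusted p 0.433 by edgeR). The interaction of genotype and time was called for Gapdh (adjusted p 1.7e-09 by edgeR), as it was for 39.3% of all genes.

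**Figure D2:**
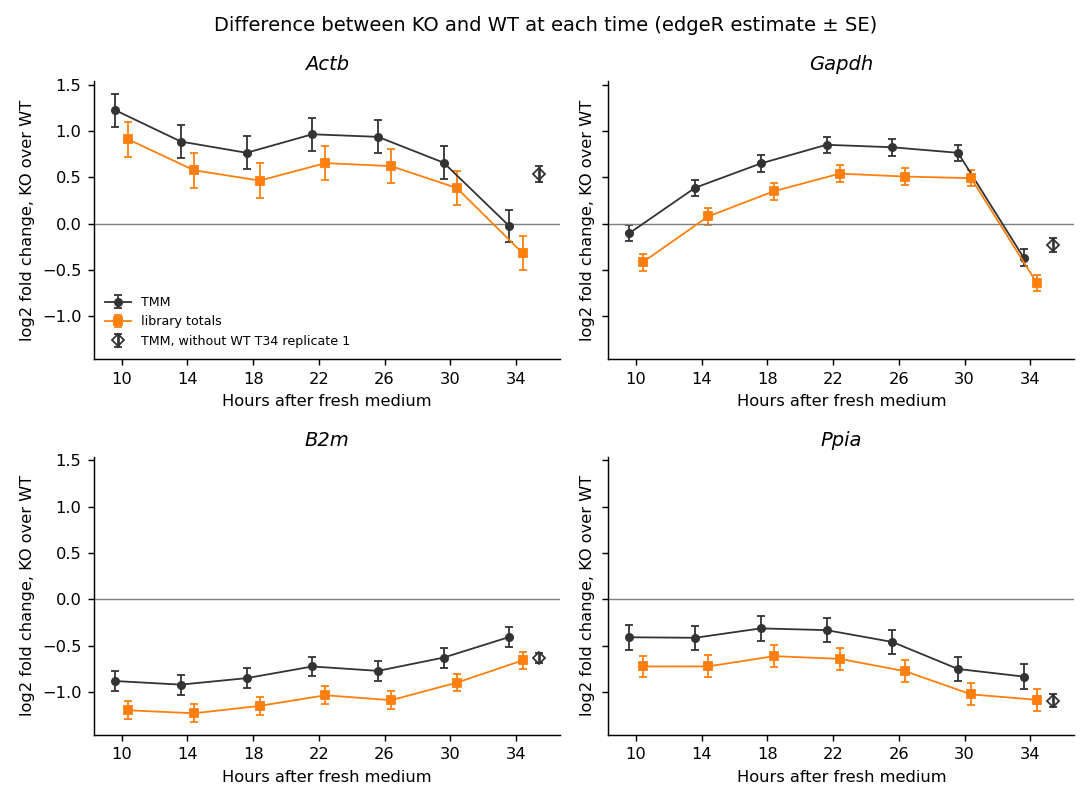
Log2 fold change of KO over WT (y axis) at each of 7 times (x axis, hours after fresh medium) for the 4 genes, as the edgeR estimate with bars for 1 SE, under TMM (circles) and library totals (squares), with an open diamond for T34 under TMM without WT T34 replicate 1. Library totals shift all points down by a similar amount, Gapdh crosses 0 and Actb at T34 depends on the 1 library.

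Actb was called over time in KO and not in WT, and the interaction tested the difference between these courses. The time course in WT was not called (log2 range 0.57, adjusted p 0.0768 by edgeR), and without WT T34 replicate 1 the range was 0.19 (adjusted p 0.203 by edgeR, against 44.1% of all genes called). It was called without WT replicate 2 (log2 range 0.81, adjusted p 0.0119 by edgeR) or WT replicate 3 (log2 range 0.74, adjusted p 0.0453 by edgeR). WT T34 was called 0.57 above T10 (adjusted p 0.0113 by edgeR, as were 37.9% of all genes in either direction), and without that library the difference was 0.01 (adjusted p 0.962 by edgeR). In KO the log2 range was 0.68 (adjusted p 0.0299 by edgeR), with the T10 mean of 1811 ± 44.3 CPM highest and the T34 mean of 1127 ± 104 CPM lowest (SD, n = 3 each). That call was lost with library totals (log2 range 0.62, adjusted p 0.0912 by edgeR), and it was lost without any 1 KO replicate (adjusted p 0.109 to 0.493 by edgeR). Without WT T34 replicate 1, which enters the KO test through the shared estimate of spread, its adjusted p was 1.1e-08 by edgeR, and 60.6% of all genes were called. The KO libraries of T10 and T14 did not overlap, nor did those of T18 and T22 or of T26 and T30, while those of T14 and T18, T22 and T26, and T30 and T34 did. These 3 separated steps had a background of 17.7%, 13.8% and 29.9% of all genes, and the others of 11.8%, 23.3% and 31.0%. In WT only the step from T26 to T30 separated Actb (27.0% of all genes). The margin was slight, with a lowest T26 value of 840 CPM and a highest T30 value of 839.67 CPM. With library totals these values were 925 and 927 CPM, so the libraries overlapped. The KO libraries of T18 and T22 were also close, at 1546.06 and 1546.57 CPM, and stayed apart with library totals, at 1384 and 1409 CPM. KO T30 replicate 1, at 1480 CPM, lay among the KO levels of T14 and T18, and the other 2 replicates, at 1176 and 1117 CPM, lay among those of T34.

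The difference of Actb between KO and WT was 1.22 on the log2 scale at T10 and then lay between 0.66 and 0.96 from T14 to T30, and it was called at each of these 6 times. At T34 it was -0.03 (SE 0.18, adjusted p 0.906 by edgeR), and without WT T34 replicate 1 it was 0.53 (SE 0.08, adjusted p 6.14e-07 by edgeR). The interaction was called for Actb with that library (adjusted p 0.00477 by edgeR) and without it (adjusted p 4.41e-05 by edgeR, against 54.0% of all genes). It was not called without KO replicate 2 or 3 (adjusted p 0.1 and 0.104 by edgeR). With library totals the T30 difference of 0.38 was not called (adjusted p 0.0621 by edgeR).

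B2m had the lowest KO to WT ratio of the 4 genes on average over the times, though Ppia was lower at T30 and T34, and the smallest spread over all KO libraries, though Gapdh and Ppia spread less from T10 to T26. In WT the T10 libraries held 95.2, 90.3 and 103 CPM, those of T14 held 98.0, 91.2 and 95.2, those of T18 held 86.3, 85.1 and 94.0, and those of T22 held 85.9, 85.2 and 81.7. The T26 libraries held 80.9, 81.1 and 80.2 CPM, those of T30 held 73.9, 79.1 and 82.6, and those of T34 held 48.2, 86.5 and 83.1. The WT values thus ran from at least 90.3 CPM at T10 to between 73.9 and 82.6 CPM at T30, and WT T34 replicate 1 lay within the range of the KO libraries. In KO the T10 libraries held 50.3, 51.6 and 55.0 CPM, those of T14 held 47.3, 51.1 and 52.0, those of T18 held 49.2, 49.6 and 48.5, and those of T22 held 50.3, 49.7 and 53.1. Later, the T26 libraries held 45.4, 48.2 and 48.4 CPM, those of T30 held 52.7, 48.9 and 50.9, and those of T34 held 55.4, 53.5 and 55.7. The KO values spanned 1.23-fold in all. Under library totals, B2m was the only one of the 4 whose 21 KO values all lay below the 21 WT values, a separation that 25.0% of all genes showed in either direction. Ppia showed it too without WT T34 replicate 1, as did 47.1% of all genes.

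B2m was called lower in KO at all 7 times with TMM, a pattern shared by Ppia and by 18.6% of all genes. Its log2 fold change was -0.88 for T10, -0.92 for T14, -0.85 for T18, -0.72 for T22, -0.77 for T26, -0.63 for T30 and -0.41 for T34. The T34 value was -0.63 without WT T34 replicate 1, and its call was lost without WT replicate 2 or 3 (adjusted p 0.0879 and 0.0526 by edgeR). The time course in WT was called (log2 range 0.41, adjusted p 0.02 by edgeR), also without that library (log2 range 0.29, adjusted p 2.39e-05 by edgeR). It was not called without KO replicate 1, 2 or 3 (adjusted p 0.0659, 0.0758 and 0.0743 by edgeR) or without WT replicate 3 (adjusted p 0.0705 by edgeR). The WT level at T34 was lower than at T10 by 0.41 on the log2 scale (adjusted p 0.00343 by edgeR), or by 0.18 without WT T34 replicate 1 (adjusted p 0.0101 by edgeR). In KO the time course was not called (log2 range 0.21, adjusted p 0.758 by edgeR), and without WT T34 replicate 1 it was (log2 range 0.21, adjusted p 0.0145 by edgeR). The interaction was not called either with TMM (adjusted p 0.066 by edgeR), and it was called with library totals (adjusted p 0.00871 by edgeR, against 39.4% of all genes) and without WT T34 replicate 1 (adjusted p 0.00212 by edgeR).

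Ppia was lower in KO and, of the 4 genes, had the narrowest range in WT once WT T34 replicate 1 was set aside. In WT the T10 libraries held 1372, 1326 and 1345 CPM, those of T14 held 1427, 1382 and 1366, those of T18 held 1322, 1342 and 1327, and those of T22 held 1298, 1414 and 1419. The T26 libraries held 1484, 1502 and 1507 CPM, those of T30 held 1481, 1504 and 1420, and those of T34 held 754, 1559 and 1448. The 20 WT values other than that of T34 replicate 1 spanned 1.20-fold, and that replicate lay among the KO values of T30 and T34. In KO the T10 libraries held 990, 1017 and 1039 CPM, those of T14 held 1047, 1002 and 1084, those of T18 held 1037, 1093 and 1084, and those of T22 held 1069, 1094 and 1120. Later, the T26 libraries held 1086, 1064 and 1118 CPM, those of T30 held 1018, 733 and 867, and those of T34 held 713, 646 and 753. The 15 KO values from T10 to T26 spanned 1.13-fold, and 5 of the 6 later values lay below all of them, the exception being KO T30 replicate 1.

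Between neighbouring times in WT, the libraries of B2m did not overlap, or separated, from T22 to T26 (lower), and those of Ppia from T14 to T18 (lower) and from T22 to T26 (higher). In either direction, 15.2% of all genes separated from T14 to T18 and 22.9% from T22 to T26. In KO, B2m separated upwards from T18 to T22 (13.8% of all genes in either direction), from T26 to T30 (29.9%) and from T30 to T34 (31.0%), and downwards from T22 to T26 (23.3%). The margin of B2m from T18 to T22 was slight, at 49.63 against 49.68 CPM. With library totals the highest T18 value was 45.1 CPM and the lowest T22 value 44.6 CPM, so those libraries overlapped. Ppia separated in KO only from T26 to T30, downwards.

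The time course of Ppia was called in KO (log2 range 0.64, adjusted p 0.00157 by edgeR) and not in WT (log2 range 0.26, adjusted p 0.626 by edgeR, or 0.18 and 0.0907 without WT T34 replicate 1). T34 was lower than T10 in KO by 0.53 on the log2 scale (SE 0.13, adjusted p 0.00211 by edgeR). The KO time course was not called without KO replicate 2 or 3 (adjusted p 0.128 and 0.0704 by edgeR). The difference between KO and WT was -0.41 in both T10 and T14, -0.31 in T18, -0.33 in T22 and -0.46 in T26, then -0.75 in T30 and -0.83 in T34. Whether it depended on time was not called with all libraries (adjusted p 0.0992 by edgeR) and was called without WT T34 replicate 1 (adjusted p 8.75e-08 by edgeR), when the T34 difference was -1.09. At T18 the call was lost without any 1 KO replicate or without WT replicate 2 or 3 (adjusted p 0.0534 to 0.118 by edgeR), and at T22 without any 1 KO replicate or WT replicate 3 (adjusted p 0.0692 to 0.0875 by edgeR).

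Counted by time, 3 of the 4 genes were called for KO against WT at T10, all 4 at each time from T14 to T30, and 3 at T34. The share of all genes called was 69.6% for T10, 70.9% for T14, 68.9% for T18, 70.5% for T22, 70.3% for T26, 73.0% for T30 and 60.7% for T34. At T34 the 3 called genes (Gapdh, B2m and Ppia) were all lower in KO, as were 33.1% of all genes. All 4 were called at T34 without WT T34 replicate 1, with Actb higher and the other 3 lower, against 75.6% of all genes. The 3 KO and 3 WT libraries of a time did not overlap for 3 of the 4 genes at T10, where Gapdh overlapped, against 78.7% of all genes. From T14 to T30 none of the 4 genes overlapped at any time, where the share of all genes was 77.9%, 78.1%, 80.7%, 80.8% and 77.2% in order of time. At T34 they did not overlap for Gapdh and Ppia (45.0% of all genes), and without WT T34 replicate 1 for all 4 (82.5%).

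Actb, Gapdh and Ppia were all lower at T34 than at T10 in KO, by 0.68, 0.55 and 0.53 on the log2 scale, and each was called. Of all genes, 17.5% were called lower in this comparison with TMM and 13.3% with library totals. The call of Actb was lost without KO replicate 3 and that of Ppia without KO replicate 2 (adjusted p 0.0616 and 0.0537 by edgeR). B2m was at 0.07 (SE 0.11, adjusted p 0.664 by edgeR). The differences between T34 and T10 in KO were of similar size with library totals, at -0.62 for Actb, -0.49 for Gapdh and -0.47 for Ppia.

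The 24 h cosinor, a fit of a cosine wave with a period of 24 h, was called for 1 of the 4 genes in each genotype. In WT it was Gapdh, with an amplitude of 0.38 on the log2 scale and a fitted peak at 12.0 h (adjusted p 0.00793 by edgeR), where 1.98% of all genes were called. That call was lost without WT replicate 2 or 3 (adjusted p 0.311 and 0.42 by edgeR), with amplitudes of 0.39 and 0.38. In KO it was Ppia, with an amplitude of 0.20 and a fitted peak at 20.7 h (adjusted p 0.0246 by edgeR), where 34.3% of all genes were called, and it was lost when any 1 KO replicate was left out (adjusted p 0.0769 to 0.163 by edgeR). Gapdh in KO had an amplitude of 0.17 (adjusted p 0.0591 by edgeR, and 0.0404 with library totals). Over 8 fits with libraries left out, the number of all genes called ran from 0 to 1925 in WT and from 0 to 4862 in KO. Actb had amplitudes of 0.07 in WT and 0.09 in KO, and B2m of 0.12 and 0.06, none of them called with all libraries. B2m was called in WT without WT T34 replicate 1, with an amplitude of 0.13 (adjusted p 0.0111 by edgeR), where 1925 genes were called, against 273 with all libraries. A wave with a period of 24 h has the same level at T10 and T34, which the cosinor test does not check. T34 differed from T10 by -0.53 for Ppia in KO and by -0.28 for Gapdh in WT on the log2 scale. The sampling covered 24 h, so no cycle was observed again.

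Ratios between the genes in the same library do not depend on the scaling. On this measure, 4 of the 6 pairs differed between genotypes by more than 0.9 on the log2 scale. Each of these 4 pairs sets a gene higher in KO over a gene lower in KO. Ratios of other gene pairs were not computed, so the counts of pairs have no background here. Actb over B2m was 3.33 ± 0.48 in WT and 4.85 ± 0.27 in KO, Actb over Ppia was -0.69 ± 0.48 and 0.59 ± 0.15, Gapdh over B2m was 3.08 ± 0.39 and 4.25 ± 0.28, and Gapdh over Ppia was -0.94 ± 0.48 and -0.01 ± 0.08 (SD, n = 21 each). The WT values without WT T34 replicate 1 were 3.23 ± 0.18 for Actb over B2m, -0.79 ± 0.14 for Actb over Ppia, 3.02 ± 0.25 for Gapdh over B2m and -1.01 ± 0.36 for Gapdh over Ppia (SD, n = 20). These values are log2 ratios of counts, which also depend on transcript length, so that only their differences between libraries are of interest. The smaller differences were those within each direction, 0.36 for Actb over Gapdh and -0.24 for B2m over Ppia (KO minus WT). Without WT T34 replicate 1, 41.3% of single genes under TMM had WT and KO ranges without overlap. For the ratios, the 20 WT and 21 KO libraries did not overlap for Actb over B2m, Actb over Ppia and Gapdh over Ppia. The other 3 pairs overlapped. With that library included all 6 overlapped, and for Actb over B2m, Actb over Ppia, Actb over Gapdh, Gapdh over B2m and Gapdh over Ppia it gave the highest WT value.

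**Figure D3:**
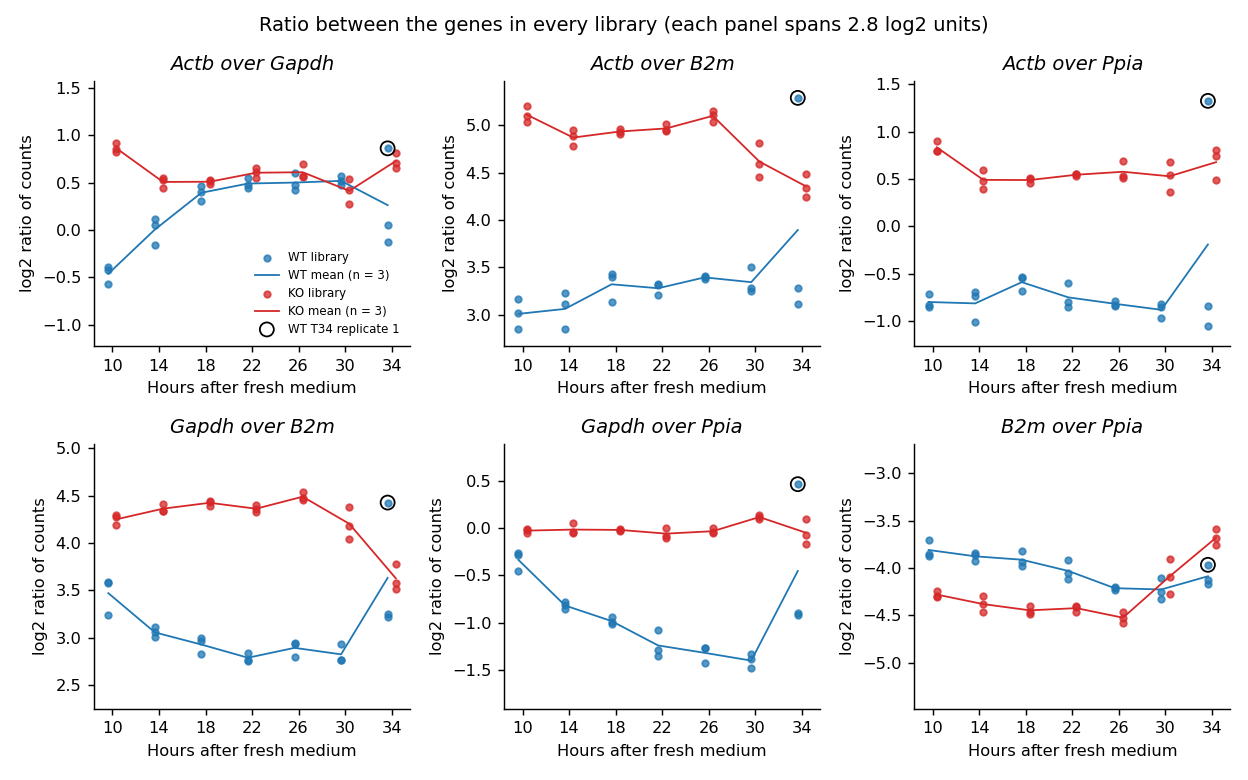
Log2 ratio of the counts of each pair of the 4 genes (y axis, each panel spanning 2.8 log2 units) against hours after fresh medium (x axis), with a point per library, lines through the means of 3 replicates and a ring around WT T34 replicate 1. Gapdh over Ppia is flat in KO (range of group means 0.18) and falls in WT from -0.34 at T10 to -1.40 at T30. B2m over Ppia is lower in KO than in WT until T26, overlaps at T30 and is higher in KO at T34.

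The ratios also varied over time within a genotype. Gapdh over Ppia was the flattest in KO, where its 7 group means spanned 0.18, and the least flat in WT, where they spanned 1.06. In WT it was -0.34 ± 0.11 at T10 and -1.40 ± 0.08 at T30 (SD, n = 3 each), and in KO it was -0.03 ± 0.02 and 0.12 ± 0.03 at those times. B2m over Ppia ran from -3.81 ± 0.09 at T10 to -4.23 ± 0.11 at T30 in WT and from -4.52 ± 0.06 at T26 to -3.68 ± 0.08 at T34 in KO. Its mean was lower in KO than in WT from T10 to T26 and higher at T34. At T30 the KO mean of -4.09 ± 0.18 was above the WT mean, but the libraries overlapped. Actb over Ppia in WT had group means that spanned 0.36 without WT T34 replicate 1, and 0.35 in KO.

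The spread of each gene over all 42 libraries was set beside that of all genes. The SD of log2 CPM was 0.48 for Actb, 0.40 for B2m, 0.36 for Gapdh and 0.34 for Ppia, against a median of 0.27 over the 4328 genes whose mean reached 50 CPM. Of these genes, 83.3% had a smaller SD than Actb, 76.1% than B2m, 70.2% than Gapdh and 65.0% than Ppia. The highest library was 2.67 times the lowest for Actb, 2.41 for Ppia, 2.28 for B2m and 2.12 for Gapdh. With library totals the order changed, with an SD of 0.54 for B2m, 0.45 for Ppia, 0.36 for Actb and 0.29 for Gapdh, and 44.8% of genes had a smaller SD than Gapdh. Differences between replicates were small beside this, as the coefficient of variation within a group had a median of 4.47% for Actb, 2.78% for Gapdh, 3.61% for B2m and 2.5% for Ppia over the 13 groups other than WT T34.

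**Figure D4:**
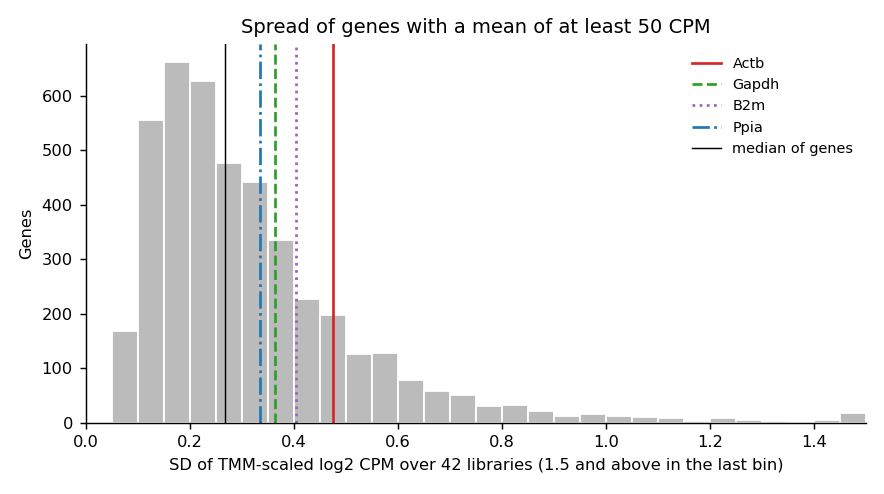
Number of genes (y axis) by the SD of their TMM-scaled log2 CPM over 42 libraries (x axis, bins of 0.05), for the 4328 genes whose mean reached 50 CPM, with a vertical line for each of the 4 genes and for the median of 0.27. All 4 lines lie to the right of the median, with Ppia at 0.34 nearest and Actb at 0.48 farthest.

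Within a genotype the order of the genes was different again. Among the 20 WT libraries other than T34 replicate 1, the SD of log2 CPM was 0.08 for Ppia, 0.10 for Actb, 0.12 for B2m and 0.33 for Gapdh, and 21.2% of the 4328 genes had a smaller SD than Ppia but 98.8% had a smaller SD than Gapdh. With all 21 WT libraries the SD was 0.21 for Ppia, 0.22 for B2m, 0.28 for Actb and 0.34 for Gapdh, and 68.5%, 70.9%, 85.9% and 93.4% of genes had a smaller SD. Among the 21 KO libraries it was 0.08 for B2m and 0.24 for each of the other 3. Of the 4328 genes, 26.2% had a smaller SD than B2m, 88.6% than Actb, 88.4% than Gapdh and 88.8% than Ppia. The KO libraries of T10 to T26 gave 0.05 for Gapdh and Ppia, 0.07 for B2m and 0.12 for Actb. There, 24.4% of genes had a smaller SD than Gapdh, 31.4% than Ppia, 58.5% than B2m and 91.5% than Actb. Ppia thus had the smallest SD of the 4 in WT with and without that library, and B2m had it in KO over all times but not from T10 to T26. The smallest SD over all 42 libraries among the 2124 genes whose mean reached 100 CPM was 0.04, for ENSRNOG00000001050, which ranged from 141 to 164 CPM, followed by 0.05 for ENSRNOG00000005877, which ranged from 252 to 294 CPM. Those genes were chosen from these libraries, and their SD was not tested in others.

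Each of the 4 genes was then used to scale the libraries, so that its own level became constant, and KO was compared with WT again. This takes the gene's own difference between KO and WT away from every other gene. The counts depend on the size of that difference and on the gene's spread between replicates, and are no further test. Scaled to Actb, 12828 genes (93.1%) were called, with 1864 up and 10964 down in KO, and scaled to Gapdh, 12417 (90.1%) were called, with 3232 up and 9185 down. Scaled to B2m, 12687 genes (92.1%) were called, with 11522 up and 1165 down in KO, and scaled to Ppia, 11999 (87.1%) were called, with 9828 up and 2171 down. Over all genes, the median of the log2 fold change was -0.82 with Actb, -0.44 with Gapdh, 0.71 with B2m and 0.47 with Ppia. The geometric mean of the 4 genes gave 5940 higher and 6075 lower, with a median of -0.01, next to 5974 and 6157 with TMM. In this mean the genes higher in KO (Actb and Gapdh) and those lower (B2m and Ppia) offset each other.

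**Figure D5:**
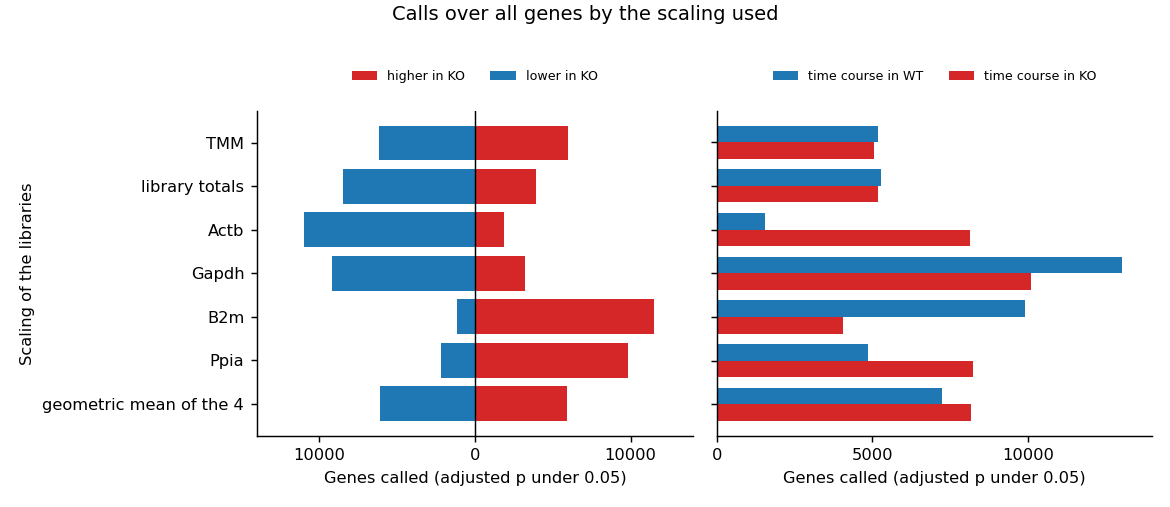
Genes called at an adjusted p under 0.05 (x axes) by the scaling of the libraries (y axis): on the left for KO against WT over all times, lower in KO to the left of 0 and higher to the right, and on the right for the time course in WT and in KO. Scaling to Actb gives 10964 lower and 1864 higher calls, scaling to B2m gives 1165 lower and 11522 higher, and scaling to Gapdh gives 13011 calls over time in WT.

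In the same way, scaling to a gene puts its own course over time, reversed, into every other gene. Its differences between replicates enter the spread as well, so the counts mix both and test nothing more. In WT the number of genes called over time was 13011 with Gapdh, 9896 with B2m, 4875 with Ppia and 1562 with Actb, against 5168 with TMM. In KO it was 10098 with Gapdh, 8245 with Ppia, 8123 with Actb and 4051 with B2m, against 5065 with TMM. The geometric mean of the 4 genes gave 7227 in WT and 8182 in KO. Without WT T34 replicate 1 the WT count with Actb was 4452, against 6078 with TMM. The KO counts without it were 12352 with Actb, 11821 with Gapdh, 11663 with Ppia and 8566 with B2m, against 8346 with TMM. Within the 4 genes, scaling to Actb put Gapdh at -0.37 in KO against WT (SE 0.05, adjusted p 7.62e-08 by edgeR), and scaling to B2m put Ppia at 0.24 (SE 0.03, adjusted p 1.45e-09 by edgeR).

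For each of the 4 genes, many other genes followed its level more closely than the rest of the 4 did. After the mean of each genotype was taken away, 2676 of the 9494 genes whose mean reached 10 CPM had a higher Pearson correlation with Actb than any of the other 3 genes had, as did 1361 for Gapdh, 3397 for B2m and 3280 for Ppia. The numbers without WT T34 replicate 1 were 726 for Actb, 1532 for Gapdh, 1283 for B2m and 1094 for Ppia. Among so many genes, some would rank above almost any 3 named ones. The same counts were not computed for other sets of genes, so they have no background here. These correlations share libraries and scaling and describe the 42 libraries only.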

How the data were processed

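RNA was measured in 42 libraries, 21 WT and 21 KO, grouped by the labels. The authors deposited a table of whole-number counts per gene for each genotype, without normalization, made with featureCounts per the submitters' processing notes. The aligner, genome build, annotation and strand setting are not given in the sources used here. Both tables listed the same 13776 genes, and filterByExpr removed 0. No identifier matched a symbol in the reference table, so the wider gene lists were not used here. The 4 genes, tests and lists were chosen with earlier results of these data known. Of the genes named by rule, only the 2 steadiest are printed, as identifiers.

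The quasi-likelihood F test of edgeR 4.0.16 (R 4.3.3) was applied to the counts, with TMM scaling and a mean for each of 14 groups. Adjusted p is by Benjamini-Hochberg over all genes tested, and a gene was called under 0.05. Contrasts were KO against WT over all times and at each time, the time course in each genotype and the interaction (6 degrees of freedom each), T34 against T10, and a cosinor with a period of 24 h on the 21 libraries of a genotype (2 degrees of freedom). The SE is the log2 fold change divided by the square root of F. Log2 CPM used a prior count of 1, as did log2 ratios. When a gene set the scale it was left out of the test. Replicates of a group differed beyond sampling noise in every pair, by a chi-square per degree of freedom of at least 5.48. The tests were checked on simulated counts. Alternatives were other scalings and filters, DESeq2 1.42.0, the replicate number as a block and left-out libraries.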

Additional observations from a re-analysis of the deposited data

Results flagged for a closer look

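For 2 of the 4 genes the difference between KO and WT was not the same at the 7 times, by a direct test of the interaction of genotype and time in edgeR. For Gapdh the adjusted p was 1.7e-09, and the log2 fold change ran from -0.10 at T10 to 0.85 at T22 and -0.37 at T34. For Actb the adjusted p was 0.00477, with a log2 fold change of 1.22 at T10 and -0.03 at T34, the last of which was 0.53 without WT T34 replicate 1. The Actb interaction was not called without KO replicate 2 or 3 (adjusted p 0.1 and 0.104 by edgeR). The same interaction was called for 39.3% of all genes. It was called for B2m and Ppia too without WT T34 replicate 1 (adjusted p 0.00212 and 8.75e-08 by edgeR), thus for all 4 genes, against 54.0% of all genes.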

How the results depend on the processing

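Of 916 alternative values for 60 results on the 4 genes, 851 kept their direction and side of the threshold, 37 lost a call, 21 gained one and 7 changed sign; the causes were not tested. Of 249 values for 25 other results, 224 stayed within their limits.

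By edgeR unless named otherwise, log2 ranges that changed side were, with library totals, 0.62 for Actb over time in KO (adjusted p 0.0912) and 0.57 for the B2m interaction (0.00871), and without the 2 most raised genes 0.62 and 0.57. The cosinor amplitude of Gapdh in KO was 0.16 with library totals (0.0404). DESeq2 gave 0.57 for Actb over time in WT (0.0365), 0.51 for the B2m interaction (0.0393) and 0.17 for the Gapdh cosinor in KO (0.0322). Fits on 1 genotype gave 0.41 for B2m over time in WT (0.245) and 0.21 in KO (0.0113). Scaling to the geometric mean of the 4 genes gave 5940 genes higher in KO.

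The labels do not say that a replicate number pairs samples, so the numbers were not treated as pairs. Of 21 same-numbered pairs, the 3 of T34 had a correlation of deviations over 0.1 (0.128 to 0.227) and the other 18 did not. Of 42 libraries, 22 were closest to one of their own number. The number to expect without pairing was not computed, so these values do not decide whether the numbers pair samples. With the replicate number as a replicate block the B2m interaction was 0.52 (adjusted p 0.0494 by edgeR), and no other call on the 4 genes changed.

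Leaving out replicates, the range over time in WT was 0.17 to 0.81 for Actb and 0.27 to 0.61 for B2m, and in KO 0.64 to 0.74 for Actb, 0.18 to 0.24 for B2m and 0.59 to 0.67 for Ppia. Interactions were 0.66 to 1.48 for Actb, 0.29 to 0.73 for B2m and 0.42 to 0.78 for Ppia. Cosinor amplitudes were 0.36 to 0.39 for Gapdh and 0.12 to 0.14 for B2m in WT, and 0.15 to 0.22 for Gapdh and 0.17 to 0.23 for Ppia in KO. KO against WT at T34 was -0.24 to 0.54 for Actb. T34 against T10 in WT was -0.0033 to 0.81 for Actb and -0.32 to 0.17 for Ppia. Leaving out KO T30 replicate 1, chosen after seeing the data, gave a Ppia interaction of 0.56 (adjusted p 0.043 by edgeR) and a Gapdh cosinor in KO of 0.19 (0.0344), both called. Scaling by a gene without WT T34 replicate 1 was also added after seeing the data.

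WT T34 replicate 1 limits every T34 result, and with it the shared estimate of spread. With 3 replicates a group, and their independence not stated, calls near the threshold depended on single replicates.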
